A study of Homo sapiens with 8 samples.

Results

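The 10 genes described here are the BEX genes BEX1, BEX2, BEX3, BEX4 and BEX5 and the TCEAL genes TCEAL1, TCEAL3, TCEAL4, TCEAL8 and TCEAL9, out of 30434 genes in the count table. They were found by their symbols, and they were chosen as a group by measured values, the large changes already seen among them in this same comparison. All values of the members between the groups are therefore given as a description, and no test is read for them. RNA was sequenced from SKBR3, a human breast cancer line in which ERBB2 (HER2) is amplified, in 4 control libraries labelled WT and 4 libraries labelled FOXA1 knockdown. The knockdown is a stable line made with lentiviral short hairpin RNAs against FOXA1, for which 3 individual hairpins are named. All cells grew in DMEM with 10% fetal bovine serum. The labels do not say whether the control cells carried a control vector, how many independent lines were made, or whether the replicates of a group came from separate cultures, so p-values measure only the spread between these libraries, which may be technical.

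BEX stands for brain expressed, X-linked. The BEX and TCEAL genes are small neighbouring genes of chromosome X, found in placental mammals, that arose by repeated duplication and encode short proteins with little fixed structure. They are abundant in neurons and endocrine cells. BEX proteins are best known as partners of the p75 neurotrophin receptor and of transcription regulators. TCEAL proteins are named for their likeness to the elongation factor TFIIS (TCEA), and FOXA1 is a forkhead factor that opens chromatin in luminal breast cells. Promoters of BEX, TCEAL and the neighbouring ARMCX and GPRASP genes are known to share a conserved stretch near the start of transcription.

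That stretch can be read in the promoter windows of RefSeq (GRCh38.p14, 250 bases before to 50 after each start), which had an entry for all 10 members and for 3 of their 4 relatives among TCEAL2, TCEAL5, TCEAL6 and TCEAL7. The lines below show the members whose values the results turn on, with BEX1 and TCEAL8 added after their values were seen. Each is written 5′ to 3′ on the strand of its gene. Capitals mark CACGTGA, the 7-letter word shared by the most of these genes, or in TCEAL9 the nearest match to it.
BEX1: cggtgacgcacggccctCACGTGAccggga
BEX3: tggtgacgcgcggccctCACGTGAcccaga
BEX2: ggcgatgacaacagccaCACGTGAtcggcc
BEX4: ggcgatgacaacagcccCACGTGAccggcc
TCEAL8: agtgatgacgcgactctCACGTGAccagga
TCEAL9: actggtgacgtagatctCATGTGAccagga
TCEAL1: cagtgacgcgcgtccctCACGTGAccagga
TCEAL3: tcgggtgacgcggcgctCACGTGAcccgcc
TCEAL4: tcctgggctgcggcattCACGTGAtct
The BEX3 stretch lies at chrX:103376474-103376503 on the plus strand, TCEAL9 at chrX:103356452-103356481 (plus), BEX4 at chrX:103215072-103215101 (plus) and BEX2 at chrX:103310997-103311026 (minus). BEX1 lies at chrX:103064206-103064235 (minus) and TCEAL8 at chrX:103255174-103255203 (minus). TCEAL4 lies at chrX:103585488-103585514, TCEAL3 at chrX:103607866-103607895 and TCEAL1 at chrX:103628902-103628931, all on the plus strand.

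This word holds the palindromic E-box, which basic helix-loop-helix factors such as MYC and USF1 recognise. It was present in the windows of 8 of 10 members and of TCEAL2, TCEAL5 and TCEAL6, against 4.49% of 27305 genes when both strands were searched. It was picked because these windows share it, so its frequency among them is a description. In the 8 members, the copy nearest to a RefSeq start and wholly upstream of it began 10 to 80 bases before that start. For BEX4 a copy was also found at −3 on the strand of the gene, which runs across the start. The nearest match differed by C3T in TCEAL9 and by C1G in BEX5, with positions counted from 1 at the first letter of CACGTGA. The letters TGACG, part of the site known for CREB factors, were found on either strand in 9 of 10 members, all but TCEAL4, and in 28.4% of all genes. In the mapped windows no copy of TGACG overlapped an exact copy of the shared word. Only in BEX5 did it overlap the nearest match. Among the 8 ARMCX and GPRASP genes with a window, ARMCX1, ARMCX2 and ARMCX4 had the word CACGTGA upstream of the start on the strand of the gene. ARMCX6 had a copy that runs across its start, and BHLHB9 had 1 on the opposite strand only.

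**Figure D1:**
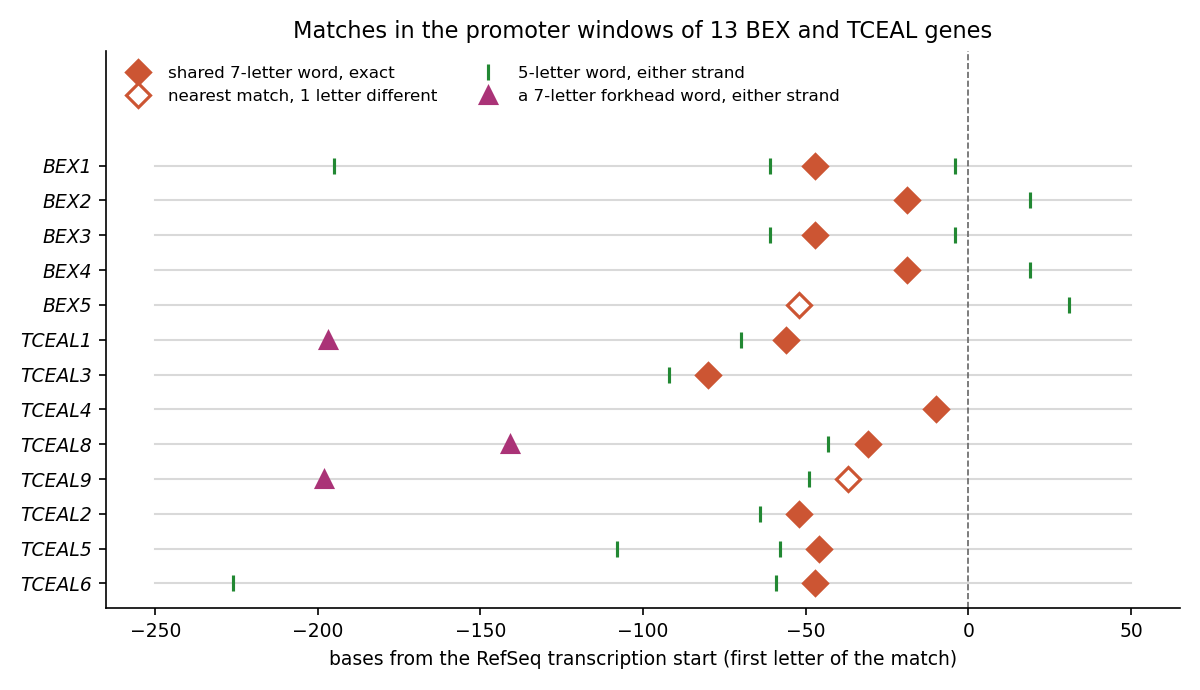
Matches to short words in the promoter windows of 13 BEX and TCEAL genes, by distance in bases from the RefSeq start. Filled diamonds are, for each gene, the exact copy of the shared word nearest to a start and wholly upstream of it, at 10 to 80 bases. Open diamonds (BEX5, TCEAL9) are nearest matches, green ticks the 5-letter word and triangles a forkhead word.

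Letters of the forkhead consensus were searched on both strands. TGTTTAC was in no member's window and in 4.19% of all genes. No member held TGTTTGC, found in 4.76% of all genes. The third form, TATTTAC, was likewise in no member and in 3.28% of all genes. The form TATTTGC was in TCEAL1, TCEAL8 and TCEAL9 and in 3.69% of all genes. The next lines show the windows of TCEAL8 and TCEAL9 up to their first annotated exon, with these letters in capitals, because both genes hold these letters and their values moved in opposite directions within one stretch of the chromosome.
TCEAL8: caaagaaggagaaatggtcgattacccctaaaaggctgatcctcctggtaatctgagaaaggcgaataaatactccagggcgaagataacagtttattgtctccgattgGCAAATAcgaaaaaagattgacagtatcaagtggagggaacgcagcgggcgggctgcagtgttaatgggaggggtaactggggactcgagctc
TCEAL9: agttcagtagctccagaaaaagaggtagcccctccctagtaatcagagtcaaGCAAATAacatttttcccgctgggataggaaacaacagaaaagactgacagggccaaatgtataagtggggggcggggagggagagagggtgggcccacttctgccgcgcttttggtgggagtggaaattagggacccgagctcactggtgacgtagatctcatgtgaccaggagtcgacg
TCEAL8 is shown from chrX:103255204-103255405 (minus strand, 202 bases) and TCEAL9 from chrX:103356256-103356488 (plus strand, 233 bases). The capitals began 141 bases upstream of the RefSeq start of TCEAL8 and 198 bases upstream of that of TCEAL9. These matches are letters in a window and say nothing about binding.

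The targeted gene was lower in all libraries labelled knockdown. Counts are listed in the order of replicates 1 to 4 throughout. FOXA1 counts were 4180, 4239, 4071 and 4397 in the controls and 89, 87, 83 and 92 in the knockdown, which left 2.06% of the control level (log2 fold change −5.60, SE 0.063; adjusted p = 3.19e-30, edgeR's quasi-likelihood test with Benjamini-Hochberg adjustment). Library totals ran from 19087878 to 23786684 counts, so that a floor of 3 counts was worth 0.123 to 0.153 CPM (counts scaled to 1000000 per library). Among the controls, replicate 3 was the least like the rest: its counts differed by 4.56 to 5.8 times the sampling variance in its 3 pairs, against 2.12 to 2.3 in the other control pairs and 2.8 to 3.79 in knockdown pairs. All 7 markers of a HER2-positive luminal line were present, with ERBB2 at 7310 CPM in control and 1340 CPM in knockdown. Of the 7, 3 were called higher and 4 lower in knockdown. Of 2 genes that this line is known to lack, CDH1 had 1, 1, 1 and 3 counts in control and 13, 9, 7 and 7 in knockdown. The other, ESR1, was not wholly absent, with 35, 28, 29 and 28 counts in control and 0, 1, 2 and 1 in knockdown. The difference between the groups was wide: 12675 of 16430 tested genes (77.1%) had an adjusted p under 0.05, 6475 higher (39.4%) and 6200 lower (37.7%) in knockdown, and the values of the groups did not overlap in 72.0% of tested genes. The members' counts below stand beside these shares, and nothing is read from them because the same contrast chose the members.

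Of the 10 members, 8 passed the filter on low counts and 2, BEX1 and BEX5, did not. TCEAL1, TCEAL3 and TCEAL4 passed it in both groups, while BEX2, BEX3, BEX4, TCEAL8 and TCEAL9 passed through 1 group only and so had to differ. Of the 8, the fitted value was higher in knockdown for 5 (BEX2, BEX3, BEX4, TCEAL4 and TCEAL9) and lower for 3 (TCEAL1, TCEAL3 and TCEAL8), and the groups did not overlap in any of the 8. In bulk RNA, a change in the number of cells that express a gene and a change in RNA per cell cannot be told apart.

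BEX3, also called NADE or NGFRAP1, binds the p75 neurotrophin receptor and is linked to cell death downstream of it. The controls held 0, 1, 0 and 1 counts of it and the knockdown libraries 3317, 3289, 2573 and 3028. Control libraries were at or near 0 throughout, and no knockdown library was under 2573 counts. Mean CPM went from 0.0221 ± 0.0256 to 137 ± 4.69 (SD, n = 4 each), a ratio of 6030 with a 95% counting interval of 1670 to 49800. Such intervals here cover counting error only.

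TCEAL9, earlier WBP5, is named for its binding to WW domains and was the most abundant member in knockdown by CPM. Its counts were 4, 6, 2 and 6 in the controls and 5079, 4817, 3923 and 3774 in the knockdown. Every control lay under 10 counts and no knockdown library under 3774. Mean CPM was 0.202 ± 0.0816 against 197 ± 17 (SD, n = 4 each). The ratio was 966, with a counting interval of 611 to 1630, and the fitted log2 fold change was 9.87 (SE 0.308).

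BEX2, a partner of the transcription regulator LMO2 that has been studied in breast cancer cell survival, had 2, 7, 5 and 10 counts in control and 738, 712, 638 and 747 in knockdown. This was 0.269 ± 0.143 CPM against 31.9 ± 2.25 CPM (SD, n = 4 each), a ratio of 117 (counting interval 78.3 to 182). BEX4, which binds tubulin and the deacetylase SIRT2, had 4, 2, 3 and 4 counts in control and 364, 369, 302 and 347 in knockdown. The corresponding levels were 0.147 ± 0.0414 and 15.5 ± 0.396 CPM (SD, n = 4 each), a ratio of 105 (counting interval 61.2 to 198). Both genes were close to their floor in every control library and clearly counted in every knockdown library.

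At most 10 counts in every control library and at least 100 in every knockdown library, limits set with these values known, were met by 171 of the 30434 genes (0.562%), and BEX2, BEX3, BEX4 and TCEAL9 are among them. Of the 170 of these with an annotated position, 17 lay on chromosome X, as did 525 of the 16430 tested genes. The 17 include BEX2, BEX3, BEX4 and TCEAL9, whose known values set the limits, so nothing is read from this number. Across chromosome X, 254 of 525 tested genes were higher in knockdown (48.4%) and 150 were lower (28.6%). The median log2 fold change of the 517 tested genes of this chromosome outside the members was 0.17, and that of all tested genes was 0.02.

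TCEAL8 went the other way. The controls held 102, 107, 84 and 99 counts of it, and each of the 4 knockdown libraries held 0. Its control level was 4.45 ± 0.392 CPM (SD, n = 4), and against a floor of 3 counts per library it was at least 32.8-fold lower in knockdown. At least 50 counts in every control library and 0 in every knockdown library, again limits set with the values known, were met by 13 of 30434 genes (0.0427%), of which TCEAL8 was the only 1 on chromosome X.

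TCEAL1, TCEAL3 and TCEAL4 were counted in all 8 libraries and differed by much less. TCEAL1, a nuclear phosphoprotein that modulates transcription, had 213, 216, 199 and 237 counts in control and 150, 146, 112 and 138 in knockdown, or 9.81 ± 0.314 against 6.11 ± 0.331 CPM (SD, n = 4 each), a fitted log2 difference of −0.68 (SE 0.0453). TCEAL3 had 86, 121, 128 and 111 counts in control and 76, 74, 56 and 44 in knockdown. Its CPM spread more between replicates, with a coefficient of variation of 18.2% in control and 18.8% in knockdown, and its log2 fold change was −0.86 (SE 0.2). TCEAL4 had 773, 809, 690 and 845 counts in control and 1038, 973, 751 and 813 in knockdown, or 35.3 ± 1.8 against 40 ± 2.93 CPM (SD, n = 4 each). Its log2 fold change of 0.18 (SE 0.0637) became 0.01 when the median of the chromosome X genes was subtracted, which moved TCEAL1 to −0.85.

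BEX1, the p75 receptor partner closest in sequence to BEX2, had no counts in control and 1, 1, 1 and 2 counts in knockdown. BEX5, about which little is known, had 1, 0, 1 and 0 counts in control and 0, 1, 3 and 1 in knockdown. Both were at or under the floor of 3 counts in all 8 libraries, and neither has a fold change.

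**Figure D2:**
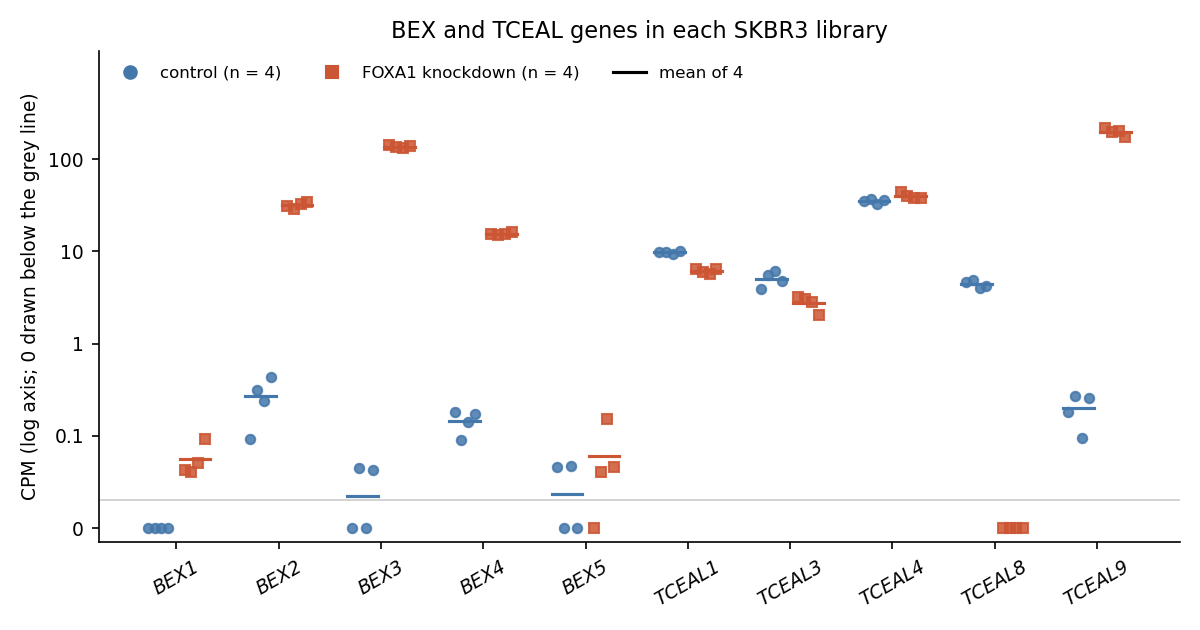
CPM of the 10 members in each library on a log axis; circles are the 4 control libraries, squares the 4 FOXA1 knockdown libraries, bars the mean of 4, and a count of 0 is drawn below the grey line. BEX2, BEX3, BEX4 and TCEAL9 go from near the floor to 15.5 to 197 CPM on average, TCEAL8 goes to 0 and TCEAL4 stays near 35.3 to 40 CPM.

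The composition of the family changed with it. The members summed to 52.8 to 57.6 CPM in control and 412 to 457 CPM in knockdown libraries. TCEAL1, TCEAL3 and TCEAL4 made up 90.3% to 91.5% of the members' counts in control and 11% to 11.7% in knockdown. BEX3 and TCEAL9 made up 0.18% to 0.552% in control and 76.5% to 78.1% in knockdown. These ranges do not overlap between the groups.

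Levels of different genes were compared as CPM per kb of annotated exon. In control the order was TCEAL4 (14 ± 0.714 CPM per kb), TCEAL1 (6.12 ± 0.196), TCEAL8 (3.64 ± 0.321) and TCEAL3 (2.2 ± 0.401), all SD, n = 4, with no overlap between neighbours. BEX2, BEX4 and TCEAL9 followed at 0.229, 0.111 and 0.102 CPM per kb, and neighbours among these 3 overlapped. In knockdown the order was BEX3 (127 ± 4.34), TCEAL9 (99.7 ± 8.6), BEX2 (27.1 ± 1.91), TCEAL4 (15.9 ± 1.16), BEX4 (11.7 ± 0.298), TCEAL1 (3.81 ± 0.206) and TCEAL3 (1.21 ± 0.227), with no overlap between neighbours. These orders depend on the length used. Per kb of the median coding transcript, control levels were 35.9 ± 1.83 for TCEAL4 and 8.42 ± 0.27 for TCEAL1, then TCEAL3 (4.51 ± 0.822) came above TCEAL8 (3.93 ± 0.347) and these overlapped. In knockdown on that scale, TCEAL9 led with 191 ± 16.4 over BEX3 with 159 ± 5.46, and TCEAL4 (40.6) and BEX2 (39) overlapped.

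The members lie along Xq22, and the map around BEX3 gives distances between the lower coordinates of genes in GENCODE 29 on GRCh38. BEX3 is annotated at chrX:103376340-103378077. To its left come TCEAL9 at −19.9 kb, TCEAL7 at −46.1 kb, BEX2 at −67 kb, TCEAL8 at −123.3 kb, BEX4 at −161.2 kb and BEX1 at −313.7 kb. BEX5 lies farther off, at −1222.6 kb. To its right come RAB40A at 122.8 kb, TCEAL4 at 199.9 kb, TCEAL3 at 231.1 kb, TCEAL1 at 252.4 kb and MORF4L2 at 299.2 kb. TCEAL5 also lies here, between TCEAL8 and BEX2 (promoter stretch at chrX:103276784-103276813), but it has no row and so no value. Genes with a row that were near the floor in control and counted in knockdown follow each other from −161.2 to 122.8 kb. They are BEX4, BEX2, TCEAL7, TCEAL9, BEX3 and RAB40A, with TCEAL8 between BEX4 and BEX2. They were not the only such genes nearby: TMEM31 at 334.6 kb had 0, 1, 1 and 0 counts in control and 9, 14, 16 and 13 in knockdown, and RAB9B at 446 kb had 2, 0, 0 and 0 against 15, 25, 24 and 16. Both were named after their values were seen. TCEAL4, TCEAL3, TCEAL1 and MORF4L2, counted in both groups, lie between, from 199.9 to 299.2 kb.

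**Figure D3:**
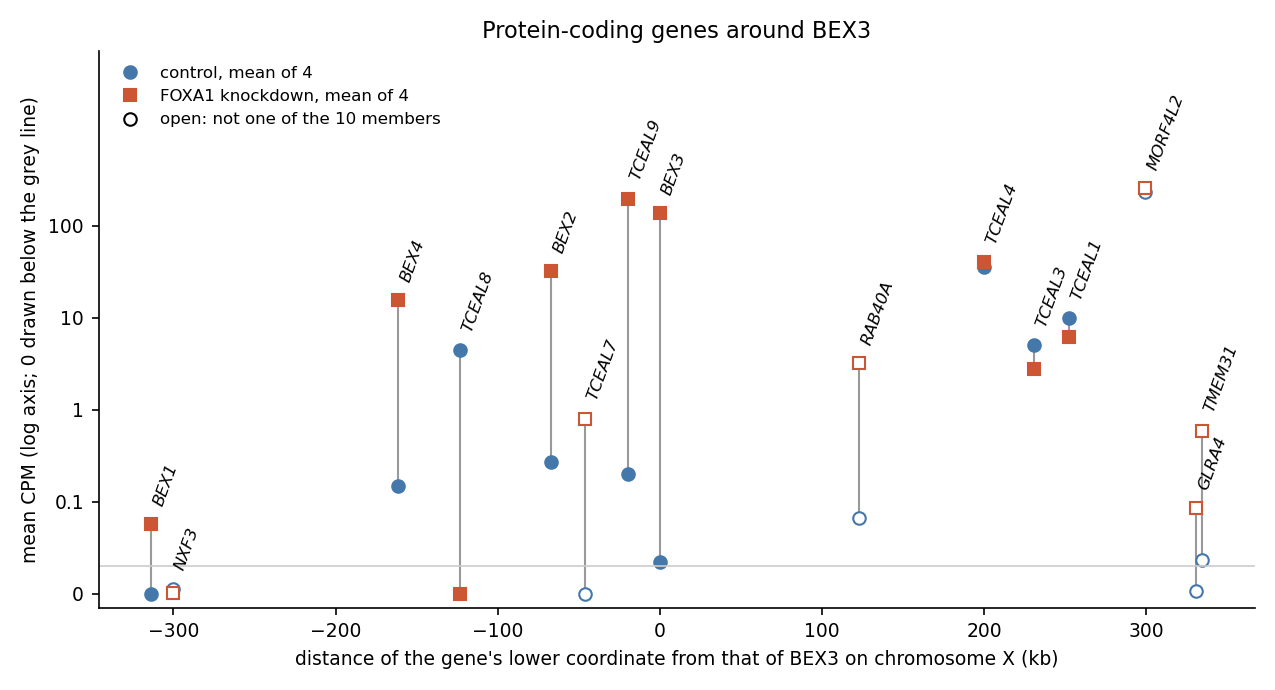
Mean CPM (log axis, n = 4 per group) of the protein-coding genes of the table around BEX3, by distance along chromosome X in kb; circles are control, squares FOXA1 knockdown, filled for members and open for other genes. From BEX4 at −161.2 kb to RAB40A at 122.8 kb the groups lie far apart, and TMEM31 at 334.6 kb is again counted mainly in knockdown. From TCEAL4 at 199.9 kb to MORF4L2 at 299.2 kb they lie closer, with TCEAL3 and TCEAL1 lower in knockdown (log2 fold changes −0.86 and −0.68).

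Members with nearly the same promoter letters had like values in 1 pair and unlike values in others. The shared stretches were compared without gaps over up to 67 bases around CACGTGA, for 78 pairs among the 13 genes with a window, and the median identity was 44.6%. BEX2 and BEX4 were the most alike pair, with 50 of 54 bases equal (92.6%), and both went from near the floor to ratios of 117 and 105. BEX1 and BEX3 had 57 of 67 bases equal (85.1%), yet BEX1 stayed at 0 to 2 counts in every library while BEX3 reached 2573 or more in knockdown. TCEAL8 and TCEAL9 had 56 of 66 bases equal (84.8%), with TCEAL8 at 0 counts in all knockdown libraries and TCEAL9 at 3774 or more. No cause of these differences was tested.

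Counts of near-identical genes depend on how shared reads are assigned. In GENCODE 29 transcripts, no 31-base stretch of BEX3, BEX5, TCEAL7 or TCEAL8 occurred in another gene's transcripts on the same strand. The share was 0.839% for TCEAL9, 1.74% for BEX4, 5.61% for TCEAL4, 8.99% for BEX2 and 12.5% for BEX1, whose closest other gene was BEX2. TCEAL3 shared 29.5% of its stretches, the largest part (15.2% of its stretches) with TCEAL6, and TCEAL1 shared 15.8% with TCEAL3, whose annotation overlaps it by 987 bp on the same strand. The values of TCEAL1 and TCEAL3 are therefore uncertain as to which gene the reads came from.

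Relatives outside the members were few in the table. TCEAL5 and TCEAL6 have no row here, and TCEAL2 had 1, 0, 2 and 0 counts in control and 0, 1, 2 and 1 in knockdown. TCEAL7, known as a gene silenced in ovarian cancer, had 0 counts in every control library and 19, 17, 16 and 19 in knockdown. It was at least 5.86-fold higher in knockdown, and as it passed the filter through that group only, no test is read for it. Of the TFIIS genes, which help stalled RNA polymerase II resume, TCEA2 rose (log2 fold change 1.03, SE 0.0557; adjusted p = 1.72e-11, edgeR) while TCEA3, which passed the filter through knockdown only, had 13, 12, 12 and 9 counts in control and 37, 29, 22 and 26 in knockdown. TCEA1, the widely expressed form, fell (log2 fold change −0.38, SE 0.0405; adjusted p = 6.03e-09, edgeR). Of the 4 tested genes in this list 3 were called higher and 1 lower, or 100% called against 77.1% of all tested genes. Among the 2 that passed the filter in both groups, 1 rose and 1 fell.

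The ARMCX and GPRASP genes, neighbours of the same Xq22 region that encode armadillo-repeat and receptor-sorting proteins, gave 8 genes in the table, of which 5 were tested, 3 were called higher and 0 lower. The share called was 60%, against 77.1% of all tested genes. Of the 3 that passed the filter in both groups, 2 rose. ARMCX1, a mitochondrial protein, had 0 counts in every control library and 37, 55, 47 and 47 in knockdown, at least 15.4-fold higher. It passed the filter through knockdown only, so no test is read for it. ARMCX5 rose by less (log2 fold change 0.61, SE 0.0824; adjusted p = 1.66e-07, edgeR), and BHLHB9 (GPRASP3) rose with an adjusted p of 0.0161 by edgeR (log2 fold change 0.49, SE 0.142). The call for BHLHB9 was lost with DESeq2 (adjusted p = 0.062) and without knockdown replicate 2 (adjusted p = 0.0885, edgeR). GPRASP1 (0.45, adjusted p = 0.182, edgeR) and GPRASP2 (−0.02, adjusted p = 0.892, edgeR) did not pass, and the sign for GPRASP2 changed with the scaling. ARMCX3 had 3, 0, 3 and 1 counts in control and 6, 15, 12 and 6 in knockdown, ARMCX4 had 0, 0, 1 and 0 against 0, 10, 4 and 2, and ARMCX6 had 0, 0, 2 and 0 against none; these were not tested.

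Of 41 other Xq22 genes listed, 36 were in the table and 20 were tested. Of these, 10 were called higher and 4 lower, but 6 of the 20 passed the filter through 1 group only and among the other 14, 5 rose and 3 fell. The share called was 70%, against 77.1% of all tested genes. The 20 had a median log2 fold change of 0.17, equal at this rounding to that of chromosome X outside the members. RAB40A, a RAB40 GTPase gene between BEX3 and TCEAL4, had 1, 2, 0 and 3 counts in control and 87, 73, 67 and 60 in knockdown (ratio 47.3, counting interval 21.5 to 130). SRPX2, which encodes a secreted sushi-repeat protein, had 2.81 ± 0.301 CPM in control against 0.156 ± 0.0751 CPM in the knockdown (SD, n = 4 each; log2 difference −4.11, SE 0.419). Both passed the filter through 1 group only, so no test is read for them. TIMM8A, a mitochondrial import gene, rose by 0.44 on the log2 scale (SE 0.0178; adjusted p = 1.72e-07, edgeR) and HNRNPH2, a splicing factor, by 0.43 (SE 0.0571; adjusted p = 9.08e-09, edgeR). RAB40A has an antisense transcript, and SRPX2 and SYTL4 overlap, so that without strand their reads could be mixed. The copies NXF2 and NXF2B, noticed after their values were seen, had 33, 0, 0 and 98 against 64, 92, 82 and 0 counts in knockdown replicates 1 to 4, and reads were given to one copy or the other in 3 of 4 libraries.

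The p75 receptor that BEX1 and BEX3 are known to bind was barely counted, while several of its cytoplasmic partners were abundant. NGFR, the p75 receptor gene, had 1, 0, 2 and 0 counts in control and 2, 6, 1 and 3 in knockdown and was not tested. The list for this system held 17 genes, among them SIRT2 and LMO2, which were added as partners of BEX4 and BEX2. Of the 17, 16 were in the table, 9 were tested, 2 rose and 6 fell, with a median log2 fold change of −0.44. The share called was 88.9%, against 77.1% of all tested genes. The 2 that rose were MAGED1, from 80.4 to 114 mean CPM, and YWHAE, from 250 to 298 mean CPM. IRAK1, among the 6 that fell, had a log2 fold change of −0.09 with overlapping groups. SIRT2, the BEX4 partner, fell from 37.6 ± 2.08 to 12.3 ± 0.785 CPM (SD, n = 4 each), with an adjusted p of 4.24e-18 by edgeR (log2 difference −1.60). SORT1, the sortilin co-receptor, fell with a fitted log2 difference of −1.28 (adjusted p = 2.11e-21, edgeR), the adaptor kinase RIPK2 with −1.12 (adjusted p = 2.88e-14, edgeR) and ARHGDIA with −0.56 (adjusted p = 2.9e-12, edgeR). LMO2, the BEX2 partner, stood at 5.37 ± 0.301 CPM in control against 5.43 ± 0.672 CPM in the knockdown (SD, n = 4 each), with an adjusted p of 0.919 by edgeR (log2 difference 0.01).

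BEX and TCEAL genes are known as targets of promoter methylation in tumours. All 17 listed genes of DNA methylation and silencing were tested and called (100%), against 77.1% of all tested genes. Of the 17, 11 rose and 6 fell, with a median log2 fold change of 0.35. The falls of DNMT1 and MBD1 were small (log2 fold change −0.11 each). With upper-quartile scaling or library size only, 15 were called and 4 were lower. TET1, which oxidises methylcytosine, rose from 1.58 ± 0.159 to 22.6 ± 1.97 CPM (SD, n = 4 each), with an adjusted p of 2.66e-21 by edgeR (log2 difference 3.83). The methyltransferase genes DNMT3B and DNMT3A rose with log2 fold changes of 2.83 (adjusted p = 2.9e-24, edgeR) and 2.07 (adjusted p = 1.58e-23, edgeR). UHRF1, which recruits the maintenance methyltransferase, fell with −1.03 (adjusted p = 1.64e-17, edgeR). Methylation itself was not measured here, and any part of these genes in the members' values was not tested.

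**Figure D4:**
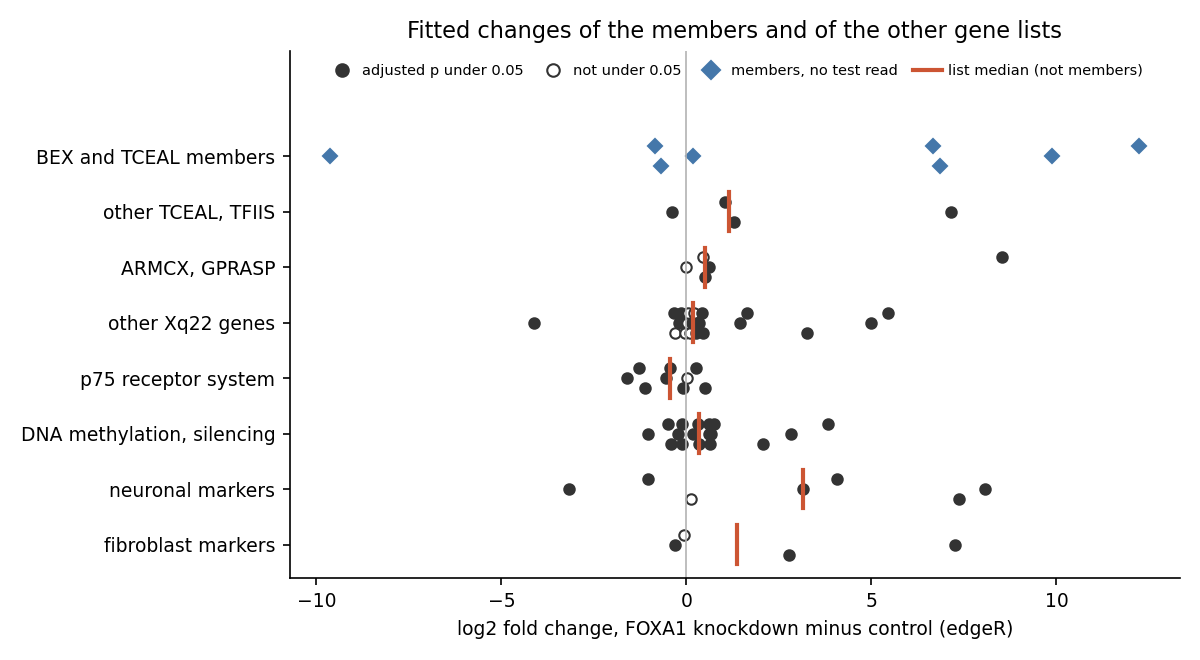
Fitted log2 fold changes of tested genes, FOXA1 knockdown minus control, by list; diamonds are the 8 tested members, filled circles genes with an adjusted p under 0.05, open circles the others, and bars the medians of the other lists. The members run from TCEAL8, whose groups include only zeros in knockdown, to BEX3 at 12.24, and most other Xq22 genes lie near 0 with a median of 0.17.

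Markers of neurons and neuroendocrine cells, where these genes are abundant, and of fibroblasts were listed too. Of those tested, 85.7% and 75% were called in either direction, against 77.1% of all tested genes. Of 15 neuronal and neuroendocrine markers 12 were in the table and 7 were tested, of which TUBB3, ENO2, NEFL and NEFM were called higher and SYT1 and MAP2 lower. Only TUBB3, SYT1 and SYP passed the filter in both groups, and of these 1 rose and 1 fell. Their summed level was 10.4 to 11.9 CPM in control and 27.2 to 28.7 CPM in knockdown libraries. TUBB3 went from 1.03 ± 0.299 to 17.5 ± 1.08 CPM (SD, n = 4 each), about as much as that sum rose, while the other called markers moved both ways. Mean CPM rose from 0.0114 to 2.82 for NEFM, from 0 to 1.52 for NEFL and from 0.101 to 0.946 for ENO2. It fell from 6.1 to 2.93 for SYT1 and from 2.58 to 0.278 for MAP2. The markers SNAP25 and CHGB were at 0 counts in every control library and at 0 to 3 in knockdown, and RBFOX3 had 2 to 5 counts in control and 6 to 10 in knockdown. ELAVL3 had 0 counts in control and 2 to 6 in knockdown, and CHGA 1 to 3 against 4 to 9. Of 8 fibroblast markers 7 were in the table and 4 were tested, of which COL3A1 and PDGFRB were called higher, both through knockdown only, and COL1A1 fell. Their sum was 6 to 7.55 CPM in control and 11.3 to 12.8 CPM in knockdown, with DCN at 0 to 1 counts. The part of these shifts in the members' values was not tested.

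The genes with profiles most like TCEAL9 were found by the Euclidean distance between centred log2 CPM profiles over the 8 libraries, among 12419 other genes averaging 50 counts or more. As the libraries form 2 groups, the distance mostly reflects the size of the group difference. Among the 5 nearest were ITGA6 (0.879), an integrin subunit, COL14A1 (0.907), a fibril-associated collagen, SLC7A2 (1.13), an arginine transporter, and STC2 (1.34), a secreted glycoprotein. ITGA6 had 3, 7, 3 and 7 counts in control and 3700, 4008, 3269 and 3554 in knockdown, close to TCEAL9 in both groups. ITGA6, COL14A1, SLC7A2 and STC2 do not lie on chromosome X. Among the members, BEX3 ranked at 39, BEX2 at 106 and BEX4 at 122 in likeness to TCEAL9.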

How the data were processed

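The deposited table holds whole-number counts per gene for 8 libraries, under Ensembl identifiers. The submitters' processing notes name FastQC, Salmon 1.9, DESeq2 3.16 and hg38 without their roles; the counting method and use of strand are not given in the sources used here. If counts came from Salmon, they are estimates for reads shared between genes. Reads were paired, 101 bp, per the labels' protocols. Library totals ran from 19087878 to 23786684.

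Groups were taken from the sample titles. Genes with too few counts were removed by filterByExpr (minimum 10 counts, total 15), which left 16430 of 30434. In R 4.3.3 and edgeR 4.0.16, libraries were scaled by TMM (factors 0.965 to 1.04) and knockdown was compared with control across all genes with glmQLFit (robust) and glmQLFTest, edgeR's quasi-likelihood test, 2-sided. P-values were adjusted by Benjamini-Hochberg with a threshold of 0.05. Standard errors come from log2 CPM with 0.5 counts added. The test was checked on simulated counts. Positions and lengths are from GENCODE 29. Promoter windows were searched with Python 3.11.15.

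The members and all lists were chosen with earlier results of these data known. Named genes are all members, FOXA1, all TCEAL relatives and ARMCX and GPRASP genes, in each other list the 4 called genes with the largest log2 fold change and a mean of at least 20 counts, and the 5 nearest profiles; others are named as exceptions or as markers, and 1 gene that this rule covers is not reported here. Sequences were to be shown for members called with a mean of at least 50 counts. Alternatives were other scalings (RLE, upper quartile, library size, chromosome X median), other filters, DESeq2 1.42.0, limma voom (limma 3.58.1), no robust estimation, a replicate block, another gene length and leaving out each library.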

Additional observations from a re-analysis of the deposited data

Results flagged for a closer look

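Of 51 groups of 4 libraries examined, 3 held a library far from the other 3; by chance about 1 in 20 groups would. TCEA1 was at 101 CPM in control replicate 3 and at 109 to 111 CPM in the other controls. GPRASP2 was at 2.61 CPM in control replicate 3 and at 3.62 to 3.81 CPM in the others. RIPK2 was at 10.9 CPM in knockdown replicate 3 and at 12.6 to 12.7 CPM in the others. Control replicate 3 is the control library that stood apart from the rest over all genes.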

How the results depend on the processing

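The 8 tested members kept their direction under every alternative of scaling, filter, tool and left-out library in which they were tested. For BEX2, BEX3, BEX4, TCEAL8 and TCEAL9, at or near 0 counts in 1 group, no alternative could have changed it, so this is no support for them. TCEAL4 was the closest to 0, at 0.13 to 0.26, and fell to 0.01 when the chromosome X median was subtracted, which leaves almost no difference. With a mean of at least 50 counts required, 2 TCEAL relatives and TFIIS genes were called (1 higher), 1 ARMCX or GPRASP gene (1 higher) and 8 other Xq22 genes (5 higher). With no filter on low counts, 5 ARMCX and GPRASP genes were called, 5 of them higher, and 4 genes of the p75 list were higher. Where the filter was changed, the number of genes tested changes with it. With library size only, 2 other Xq22 genes were lower and 12 higher. That setting leaves out the TMM factors, which were 0.9655 to 0.9768 in control and 1.022 to 1.04 in knockdown libraries. Under it the log2 fold change of TCEAL1 went from −0.68 to −0.6 and that of TCEAL4 from 0.18 to 0.26. For library size the cause was not tested. GPRASP2 changed sign to 0.04 with upper-quartile scaling and to 0.06 with library size only, and ranged from −0.13 to 0.05 without a library; the cause was not tested. Deviations of same-numbered libraries correlated weakly (0.0877, 0.168, −0.0355 and 0.0661 over 12420 genes). Between differently numbered libraries the correlations ran from −0.119 to 0.074. Whether libraries with the same number were handled together is not given, and these values do not settle it. With a replicate block 12453 genes were called, and no named gene changed its call. At this depth no change could be seen in BEX1 or BEX5.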
